A study of Homo sapiens with 7 samples.

Results

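Peaks of O-GlcNAcase (OGA) and of SPT5 on chromosomes 1 to 22 were compared by position, to describe where within an SPT5 domain the OGA summit lay and how SPT5 peaks with OGA differed from those without it. Both proteins were mapped by ChIP-seq, the sequencing of DNA precipitated with an antibody, in BJAB cells, a human B-cell line that the labels trace to Burkitt's lymphoma. There was 1 library per antibody (NCOAT for OGA, SPT5 for SPT5), without replicates. The members were every peak of the 2 deposited lists on these chromosomes: 2503 of the 2567 OGA peaks and 54885 of the 56104 SPT5 peaks, of 132893 peaks in the 5 lists of the series. Lists for RNA polymerase II (Pol II, antibody 8WG16), TRIM28 and the sugar O-GlcNAc (antibody RL2) were used as further readouts at the same sites, and the mouse and rabbit IgG libraries were not analysed here. All libraries came from this 1 cell line, at multiple passages per the labels, and the labels give no treatment. With 1 library per antibody, the antibody cannot be told apart from the passage, preparation and depth of its library.

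SPT5 is a subunit of DSIF, a complex that binds Pol II soon after initiation, takes part in the promoter-proximal pause, and stays with the polymerase through elongation once it has been phosphorylated. OGA is the enzyme that takes the sugar O-GlcNAc off proteins, and the C-terminal domain of the largest Pol II subunit is among the proteins known to carry this sugar. TRIM28 is a co-repressor recruited by KRAB zinc finger proteins and is also known as a factor of Pol II pausing.

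OGA summits lay inside SPT5 peaks at 70.1% of OGA peaks (1755 of 2503, 95% Wilson interval 68.3% to 71.9%). Beside this, SPT5 peaks held 18321 of 19336 Pol II, 7731 of 8988 O-GlcNAc and 18366 of 43998 TRIM28 summits. The share for OGA was thus lower than for Pol II and O-GlcNAc and higher than for TRIM28. Counting an overlap of at least 1 bp, 1810 OGA peaks (72.3%) touched SPT5, and the 55 whose summit lay outside the SPT5 peak were a median of 26 bp beyond its end. Intervals here cover counting error only and treat peaks as independent, and the read depth of the libraries is unknown. Since each antibody had 1 library, no difference below was tested, and it is described by counts, intervals and medians.

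Within SPT5 peaks the OGA summit lay towards the centre and seldom at the edge. Position was scaled from 0 at one end of the SPT5 peak to 1 at the other, so that a flat spread would put 20% of summits in the central stretch (0.4 to 0.6) and 20% in the outer stretches (the last 10% of the width at both ends combined). The central stretch held 37.4% of the 1755 contained OGA summits (35.2% to 39.7%), and the outer stretches held 4.33% (3.47% to 5.39%). The 10 equal bins of the peak from one end to the other held 2.11%, 5.93%, 10.3%, 13.1%, 19.9%, 17.5%, 14.1%, 9.97%, 4.84% and 2.22% of the OGA summits. The spread was thus close to symmetric, and both ends of the peak held similar shares. The ends were ordered by genome coordinate, without regard to strand or gene direction. A preference for 1 side relative to transcription would therefore not show here.

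How central OGA was depended on the width of the SPT5 peak. SPT5 peaks under 500 bp held 395 OGA summits, with 34.2% in the central stretch (29.7% to 39.0%) and 7.09% in the outer stretches. Peaks of 500 to 1000 bp (1000 bp itself counted in the next class) held 522, and here OGA was most central, with 47.3% in the central stretch (43.1% to 51.6%) and 2.11% in the outer stretches. Peaks of 1000 to 2000 bp held 508, with 37.4% (33.3% to 41.7%) and 2.17%. The broad domains over 2000 bp held 330, with 25.8% (21.3% to 30.7%) and 7.88%, so that OGA was spread nearly evenly along them except at the ends. In these domains no bin of 10% of the width held more than 15.5% of the OGA summits, and each of the 2 end bins held 3.94%. The interval of the 500 to 1000 bp class did not overlap that of any other class.

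**Figure D1:**
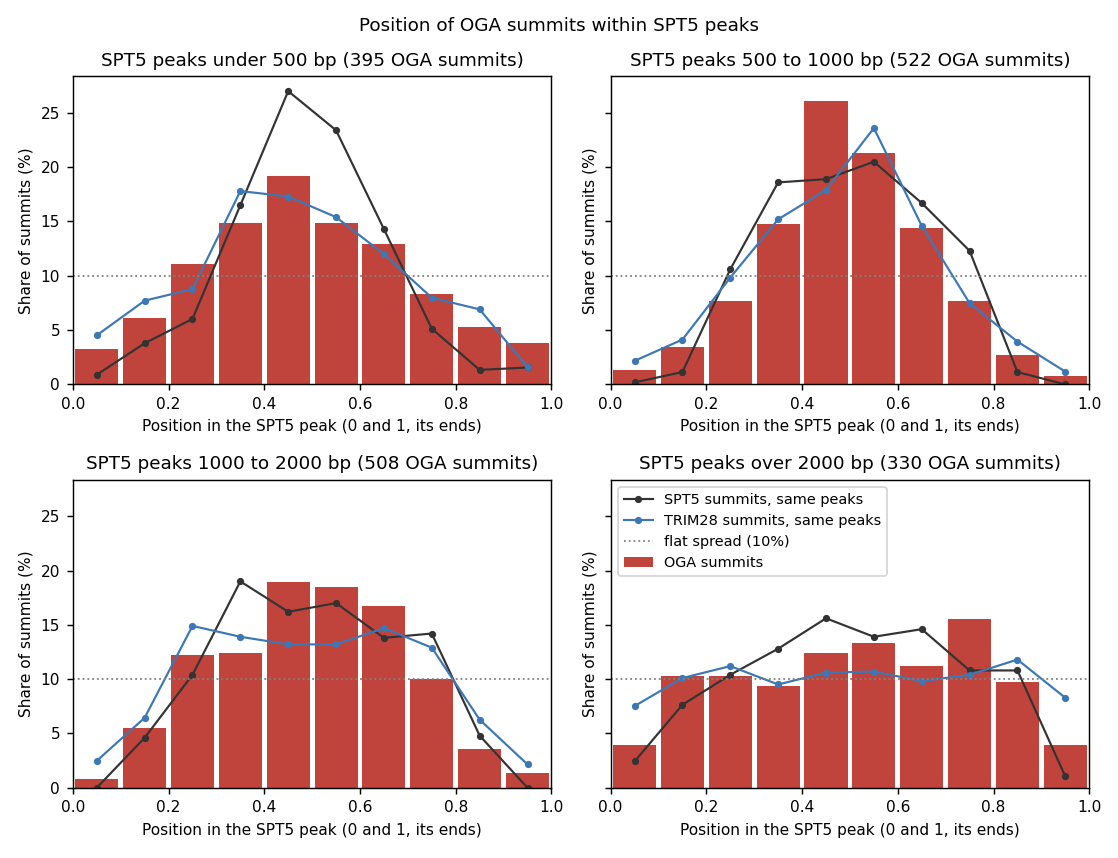
Share of summits (%, y axis) in each bin of 10% of the SPT5 peak's width (x axis, 0 and 1 are its ends), in 4 classes of SPT5 width. Bars are OGA summits, lines are the SPT5 and TRIM28 summits of the SPT5 peaks with OGA, and the dotted line is a flat spread of 10%; OGA peaks at the centre in the 3 narrower classes and is nearly flat over 2000 bp.

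The place of SPT5's own summit was measured in the same way. The OGA and SPT5 summits come from largely the same peaks, and the intervals below do not use this pairing. In SPT5 peaks of 500 to 1000 bp with OGA, the OGA summit was in the central stretch at 47.3% (43.1% to 51.6%). The SPT5 summit was there at 39.4% (35.3% to 43.6%), and the 2 intervals overlapped. Under 500 bp the order was turned, with 34.2% for OGA and 50.4% for the SPT5 summit (45.8% to 55.1%), and the intervals were apart. For 1000 to 2000 bp the values were 37.4% for OGA and 33.2% for SPT5 (29.2% to 37.4%), and over 2000 bp they were 25.8% and 29.5% (24.5% to 35.0%), with overlapping intervals in both classes. The outer stretches of peaks of 1000 to 2000 bp held 11 of 508 OGA summits but 0 of 500 SPT5 summits, a count that allows a share of up to 0.762% (Wilson).

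The order of the targets by central share differed between width classes. In SPT5 peaks under 500 bp with OGA, the central stretch held 34.2% of OGA summits, against 50.0% of Pol II (38 of 76, 39.0% to 61.0%), 32.7% of TRIM28 and 31.2% of O-GlcNAc summits (5 of 16). In peaks of 500 to 1000 bp with OGA, the central stretch held 47.3% of OGA, 57.1% of O-GlcNAc, 41.5% of TRIM28 and 32.2% of Pol II summits. Between 1000 and 2000 bp it held 37.4% of OGA, 33.4% of O-GlcNAc, 30.8% of Pol II and 26.4% of TRIM28 summits. Over 2000 bp it held 25.8% of OGA summits, against 21.3% of TRIM28, 20.8% of Pol II and 17.6% of O-GlcNAc summits. The outer stretches of these broad domains held 7.88% of OGA summits (5.43% to 11.3%), against 15.8% of TRIM28, 12.2% of Pol II (9.79% to 15.1%) and 11.9% of O-GlcNAc summits. Among broad SPT5 domains with OGA, OGA was thus the least often of these 4 at the ends, although its interval overlapped those of Pol II and O-GlcNAc. Over all SPT5 peaks over 2000 bp, with OGA or without, the outer stretches held 7.64% of O-GlcNAc summits (6.08% to 9.56%). They held 10.5% of Pol II and 12.8% of TRIM28 summits. A low share at the ends was therefore not particular to OGA. These shares are per summit, and the 288 broad domains with OGA held 330 OGA, 652 TRIM28, 582 Pol II and 176 O-GlcNAc summits. The targets thus differed in summits per domain, which holds for the distances below as well.

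In base pairs, OGA lay farther from the SPT5 summit in wider SPT5 peaks. The median distance from the OGA summit to the summit of the SPT5 peak around it was 103 bp over all 1755 (quartiles 41.5 and 216 bp). By width class the medians were 47 bp, 87.5 bp, 150 bp and 342 bp from the narrowest to the broadest. The share of OGA summits within 100 bp of the SPT5 summit was 79.0% under 500 bp, 56.3% at 500 to 1000 bp, 36.8% at 1000 to 2000 bp and 22.4% over 2000 bp. Pol II summits, in contrast, stayed within a median of 24 bp and 35.5 bp of the SPT5 summit in peaks of 500 to 1000 and 1000 to 2000 bp with OGA, and only over 2000 bp did their median reach 636 bp. TRIM28 summits in the same peaks lay at medians of 53 bp, 106 bp, 174 bp and 720 bp in the 4 classes, close to those of OGA in all but the broadest. These distances are bounded by the width of the peak, unlike the scaled positions.

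The OGA summit was about as often nearer to the middle of the SPT5 peak as to its summit. Of the 1755, 852 (48.5%) were nearer to the midpoint and 902 (51.4%) nearer to the SPT5 summit. In peaks of 500 to 1000 bp 56.5% were nearer to the midpoint, whereas at 1000 to 2000 bp 43.1% were. Most SPT5 peaks were lopsided, with 1 arm from the summit to the end longer than the other. OGA lay on the longer arm at 70.5% of summits in the 500 to 1000 bp class (66.4% to 74.2%), where that arm made up 63.5% of the width on average. In the other classes the longer arm held 63.5%, 62.7% and 63.3% of OGA summits under 500 bp, at 1000 to 2000 bp and over 2000 bp, against 61.6%, 65.5% and 68.2% of the width. The share of the width is what a flat spread would give. The midpoint of a peak always lies on its longer arm, so summits near the centre add to the share on that arm. The longer arm is therefore not a measure separate from the central stretch. Only in the 500 to 1000 bp class, where OGA was most central, did the interval exclude the share of the width. In that class O-GlcNAc summits in peaks with OGA lay on the longer arm at 80.8% and Pol II summits at 46.1% (41.0% to 51.3%).

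Between 500 and 2000 bp, OGA summits were more often central where the SPT5 peak had Pol II, but the intervals overlapped. At 500 to 1000 bp the central stretch held 50.9% of OGA summits in SPT5 peaks with Pol II (178 of 350, 45.6% to 56.1%) and 40.1% in those without (69 of 172, 33.1% to 47.6%). At 1000 to 2000 bp it held 38.4% (178 of 463) and 26.7% (12 of 45), again with overlapping intervals, and over 2000 bp 25.6% (82 of 320) and 30.0% (3 of 10). In SPT5 peaks that held at least 2 Pol II summits, OGA lay between the outermost of them at 74.5% of summits for 1000 to 2000 bp (73 of 98, 65.0% to 82.1%), where that stretch took up 47.3% of the width. Over 2000 bp it did so at 58.9% (119 of 202, 52.0% to 65.5%), against 52.2% of the width. The SPT5 summits of the same peaks lay between Pol II summits at 68.8% (58.9% to 77.1%) and 58.1% (50.5% to 65.3%), with intervals that overlapped those of OGA.

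Wide SPT5 peaks carried OGA more often than narrow ones, but the density of OGA did not rise steadily with width. OGA overlapped 3.21% of all SPT5 peaks (1764 of 54885). By width the share was 1.39% under 500 bp (448 of 32207, 1.27% to 1.52%), 3.86% at 500 to 1000 bp (528 of 13683, 3.55% to 4.19%), 7.63% at 1000 to 2000 bp (500 of 6554, 7.01% to 8.30%) and 11.8% over 2000 bp (288 of 2441, 10.6% to 13.1%). The broadest class was 8.48 times the narrowest in this share and 9.74 times in median width. Per Mb of sequence covered by SPT5 peaks there were 40.4 OGA summits under 500 bp, 54.0 at 500 to 1000 bp, 57.0 at 1000 to 2000 bp and 39.2 over 2000 bp, a ratio of 0.969 between the broadest and the narrowest. The share thus grew with width in each class. The density was higher in the 2 middle classes and similar in the narrowest and the broadest.

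The density of OGA in broad SPT5 peaks differed between those with Pol II and those without. With Pol II, 2.74% of SPT5 peaks under 500 bp and 16.2% of those over 2000 bp carried OGA, at 66.9 and 53.2 OGA summits per Mb. Without Pol II the shares were 1.26% and 1.38% (10 of 725, 0.751% to 2.52%), and the density was 37.2 per Mb under 500 bp, 36.7 at 500 to 1000 bp, 16.6 at 1000 to 2000 bp and 4.15 over 2000 bp. Of the 8 groups by width and Pol II, SPT5 peaks over 2000 bp without Pol II had the fewest OGA summits per Mb. TRIM28 marked a still larger contrast, since 9.94% of SPT5 peaks with TRIM28 had OGA (1677 of 16870) and 0.229% of those without it did (87 of 38015, 0.186% to 0.282%). Among SPT5 peaks with TRIM28 the density was 204 OGA summits per Mb under 500 bp and 59.7 over 2000 bp.

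**Figure D2:**
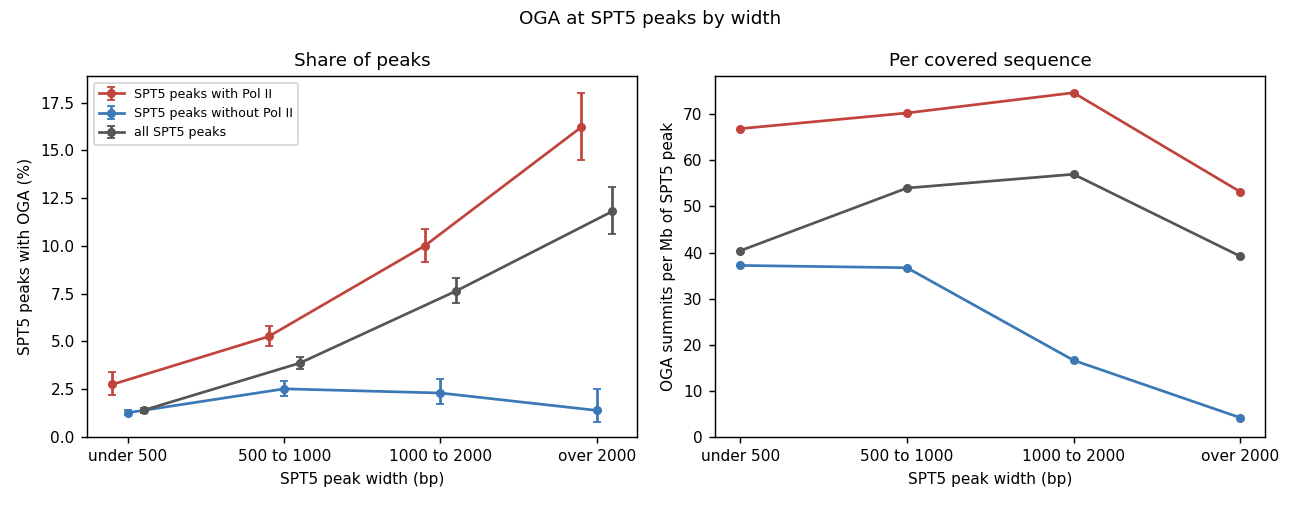
Left, share of SPT5 peaks with an OGA peak (%, 95% Wilson intervals), and right, OGA summits per Mb of SPT5 peak, both against SPT5 width class (x axis). Lines are SPT5 peaks with Pol II, without Pol II and all together; the share for all peaks was 1.39% under 500 bp and 11.8% over 2000 bp, while the density for all peaks stayed between 39.2 and 57.0 per Mb.

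Most SPT5 peaks with OGA held 1 OGA peak. A single OGA peak overlapped 1715 of the 1764, while 42 held 2, 4 held 3 and 3 held 4. The 49 SPT5 peaks with several were broad, with a median width of 2942 bp and 33 of them over 2000 bp. Pol II overlapped 47 of these 49, TRIM28 all 49 and O-GlcNAc 23. Neighbouring OGA summits inside 1 SPT5 peak lay a median of 979 bp apart (58 spacings, quartiles 474 and 2385 bp, range 97 to 12731 bp). The median OGA peak was 236 bp wide.

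SPT5 height is the authors' fold enrichment of the peak over a background that the sources used here do not give. Whether SPT5 was higher with OGA depended on width. Under 500 bp, SPT5 peaks with OGA were lower, with a median fold enrichment of 2.68 (95% interval of the median 2.60 to 2.77) against 2.92 without OGA. At 500 to 1000 bp the medians were 4.90 with OGA (4.50 to 5.15) and 4.27 without (4.22 to 4.31). At 1000 to 2000 bp they were 8.43 (7.95 to 8.81) and 6.84 (6.69 to 7.01), and over 2000 bp 9.0 (8.72 to 9.35) and 7.42 (7.21 to 7.64). The differences were -0.234, 0.635, 1.59 and 1.59 from the narrowest class to the broadest. The difference at 500 to 1000 bp was 0.272 (-0.249 to 0.636) with peaks of a −log10 q of at least 5 and 0.312 (-0.196 to 0.601) with SPT5 peaks within 500 bp merged, both intervals including 0. With the same q limit, the differences were -0.432 under 500 bp and 0.789 at 1000 to 2000 bp. By chromosome, SPT5 was higher with OGA in 2 of 21 chromosomes under 500 bp that had at least 3 peaks of each kind, in 18 of 22 and 19 of 22 in the next classes, and in 19 of 20 over 2000 bp. Chromosomes of 1 library share its preparation and are not replicates.

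Within width classes, the higher SPT5 level with OGA did not hold once SPT5 peaks were divided by Pol II. Over all widths together, SPT5 peaks with Pol II had medians of 8.04 with OGA (7.77 to 8.31) and 7.11 without (7.03 to 7.20). With Pol II, SPT5 medians with and without OGA were 6.64 and 7.08 at 500 to 1000 bp, 8.80 and 8.86 at 1000 to 2000 bp, and 9.08 and 9.14 over 2000 bp. Their intervals overlapped in each of these classes, and also under 500 bp at 3.70 and 3.81. Without Pol II, SPT5 was lower with OGA in each class: 2.58 and 2.89 under 500 bp, 3.19 and 3.41 at 500 to 1000 bp, 3.64 and 4.03 at 1000 to 2000 bp, and 4.30 and 5.26 over 2000 bp. The intervals were apart in the 2 narrower of these classes and overlapped in the 2 broader ones, where only 46 and 10 peaks had OGA. Pol II overlapped 66.0% of SPT5 peaks with OGA (63.7% to 68.2%) and 27.6% of those without it (27.3% to 28.0%), beside 28.9% of all SPT5 peaks. Over 2000 bp it overlapped 96.5% of SPT5 peaks with OGA and 66.8% of those without. SPT5 peaks without TRIM28, few of which had OGA, were not divided further by Pol II. Their SPT5 medians with and without OGA were 2.64 and 2.92 under 500 bp, and 5.10 and 3.71 at 500 to 1000 bp. They were 9.12 (7.02 to 12.1) and 4.65 (4.57 to 4.74) at 1000 to 2000 bp, and 10.6 and 5.80 over 2000 bp. These medians came from 31, 29, 18 and 9 peaks with OGA. The part of Pol II in this contrast was not tested. Among SPT5 peaks with TRIM28 the medians in the 4 classes were 2.69 and 2.92, 4.90 and 6.09, 8.31 and 8.73, and 8.91 and 9.05. The intervals were apart in the 2 narrower classes (4.50 to 5.15 and 5.95 to 6.25 at 500 to 1000 bp) and overlapped in the 2 broader ones. With both TRIM28 and Pol II the medians were 3.63 and 3.87, 6.56 and 7.31, 8.76 and 9.10, and 9.04 and 9.41. Their intervals overlapped in each class. The division by Pol II and by TRIM28 was chosen after the undivided values had been seen.

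**Figure D3:**
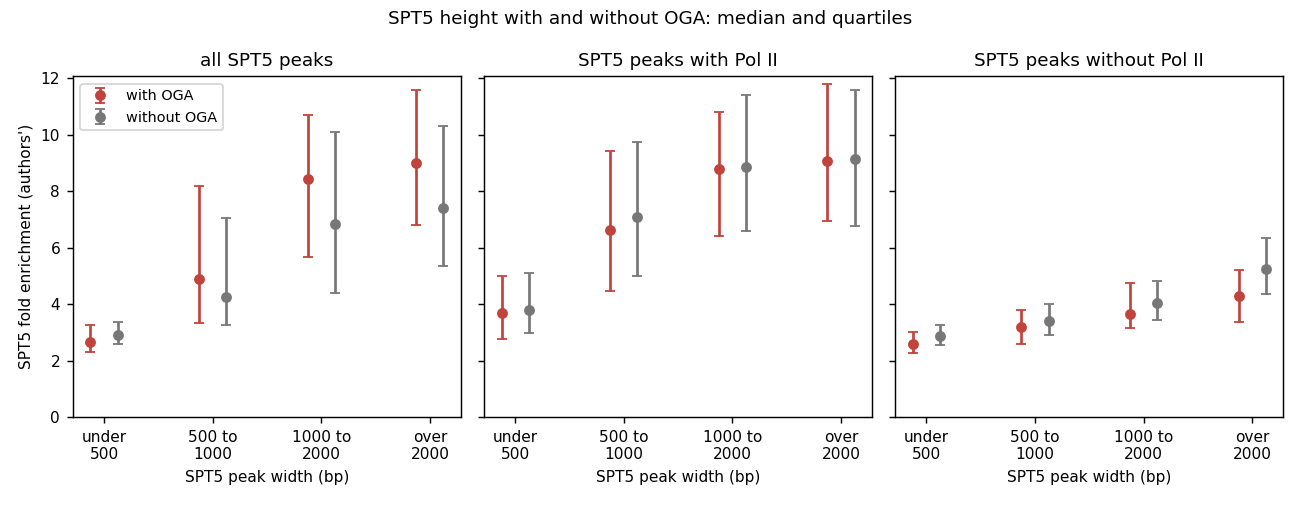
SPT5 fold enrichment of the authors (y axis; points are medians, bars the quartiles over peaks) by SPT5 width class (x axis), with OGA (red) and without OGA (grey). Over all SPT5 peaks of 1000 to 2000 bp the medians were 8.43 with OGA and 6.84 without, whereas among those with Pol II they were 8.80 and 8.86.

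The share of SPT5 peaks with OGA was lowest in the middle of the range of SPT5 height. With SPT5 peaks divided by fold enrichment into 10 bins of equal number, the shares from the lowest bin to the highest were 3.19%, 1.95%, 1.49%, 1.26%, 1.26%, 1.79%, 2.10%, 3.68%, 6.78% and 8.65%, and the intervals of the lowest bin (2.76% to 3.69%) and the fourth (0.995% to 1.59%) were apart. TRIM28 had a dip of the same kind, at 23.8% of SPT5 peaks in the lowest bin, 15.1% in the fourth and 76.7% in the highest. Pol II had none, at 4.57%, 6.12% and 98.6%. Among SPT5 peaks without Pol II, OGA was most frequent in the lowest bin at 3.38%, and was 1.46% in the highest. Among those with Pol II it was 4.98% in the lowest bin, 9.34% in the seventh and 8.64% in the highest, with all widths pooled. Within width classes, SPT5 peaks with Pol II had OGA at 3.86% in the lowest bin and 2.81% in the highest under 500 bp, 7.26% and 4.89% at 500 to 1000 bp, 13.0% and 7.69% at 1000 to 2000 bp, and 12.8% and 16.3% over 2000 bp. The intervals of these lowest and highest bins overlapped in each class. The part of Pol II and TRIM28 in the shape over all peaks was not tested.

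**Figure D4:**
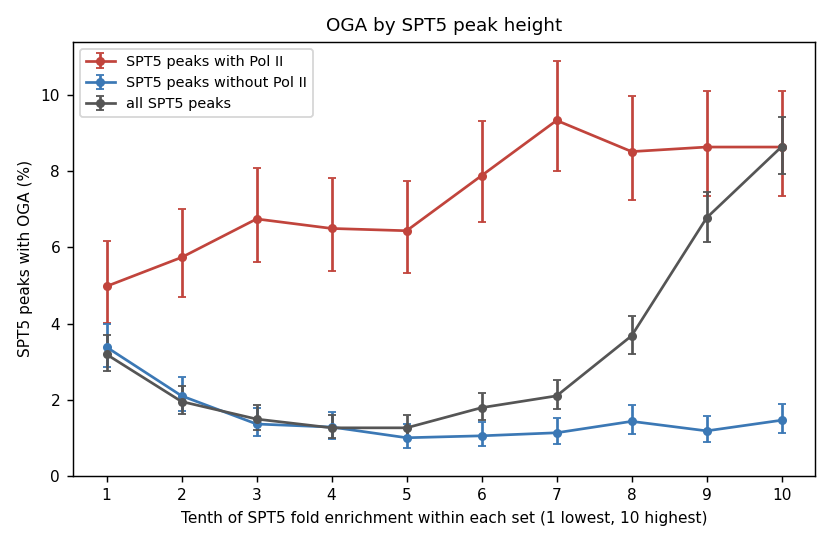
Share of SPT5 peaks with OGA (y axis, %, 95% Wilson intervals) in 10 bins of SPT5 fold enrichment (x axis, 1 lowest, 10 highest), ranked separately within SPT5 peaks with Pol II, without Pol II and all. Over all SPT5 peaks the share was 3.19% in the lowest bin, 1.26% in each of bins 4 and 5, and 8.65% in the highest.

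SPT5 peaks with OGA had fewer SPT5 neighbours than those without it. Of all SPT5 peaks, 83.0% had another SPT5 peak within 10 kb, measured between the nearest ends. The mean number of such flanking SPT5 peaks was 3.09 with OGA (SE over peaks 0.0828) and 4.72 without (0.0196), and no flanking peak was found at 26.1% with OGA (461 of 1764, 24.1% to 28.2%) and 16.7% without (8867 of 53121, 16.4% to 17.0%). The nearest SPT5 peak was a median of 1670 bp away with OGA and 569 bp without. The contrast was widest for narrow SPT5 peaks: under 500 bp the means were 1.93 and 4.81, and 36.8% and 14.5% had no flanking peak. At 500 to 1000 bp the means were 2.63 and 4.34, at 1000 to 2000 bp 3.43 and 4.46, and over 2000 bp 5.18 and 6.32. Fewer flanking peaks with OGA were seen in 21 of 21, 21 of 22, 18 of 22 and 18 of 20 chromosomes in the 4 classes. With the peaks without OGA weighted to the same width classes and 5 bins of SPT5 height, the means were 3.09 and 4.43. The size of the contrast depended on how peaks were called: the difference under 500 bp was -2.88, but -1.57 at a −log10 q of at least 5 and -1.06 with SPT5 peaks within 500 bp merged. The weighted difference was -1.33, -0.818 and -0.394 in the same order.

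SPT5 peaks with and without Pol II differed in this. Without Pol II the mean number of flanking SPT5 peaks was 2.84 with OGA and 5.55 without, and 30.8% (27.3% to 34.6%) and 10.8% (10.5% to 11.1%) had none. Among SPT5 peaks with Pol II the order was turned with all widths pooled, at 3.22 with OGA and 2.53 without, and 23.7% (21.4% to 26.2%) and 32.2% (31.4% to 32.9%) had none. Within width classes the means with Pol II were 1.87 and 2.13 under 500 bp, 2.13 and 1.96 at 500 to 1000 bp, 3.18 and 2.72 at 1000 to 2000 bp, and 5.08 and 5.31 over 2000 bp. The order was thus not turned under 500 bp or over 2000 bp. Only at 1000 to 2000 bp did the difference, taken with 2 SE on either side, exclude 0 (0.456, 0.124 to 0.789). With TRIM28 the means were 1.88 and 2.46, 2.61 and 2.34, 3.45 and 2.88, and 5.21 and 5.30. Weighted to the same width class, Pol II and TRIM28, the means over all SPT5 peaks were 3.09 with OGA and 3.15 without. This average joins groups whose means over all widths differed in opposite directions. With both TRIM28 and Pol II, the means were 3.25 with OGA (SE over peaks 0.103) and 2.35 without (0.0296), and higher with OGA in each of the 4 width classes. The difference was small beside the SE under 500 bp (1.82, SE 0.254, against 1.58) and over 2000 bp (5.10, SE 0.219, against 4.94). Over 2000 bp, 12 of 20 chromosomes had fewer flanking peaks with OGA. With TRIM28 but without Pol II, the means were 2.81 with OGA (SE 0.152) and 3.44 without (0.0534), and lower with OGA in each of the 4. Over 2000 bp this rested on 9 peaks with OGA (8.56, SE 1.63, against 9.18).

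**Figure D5:**
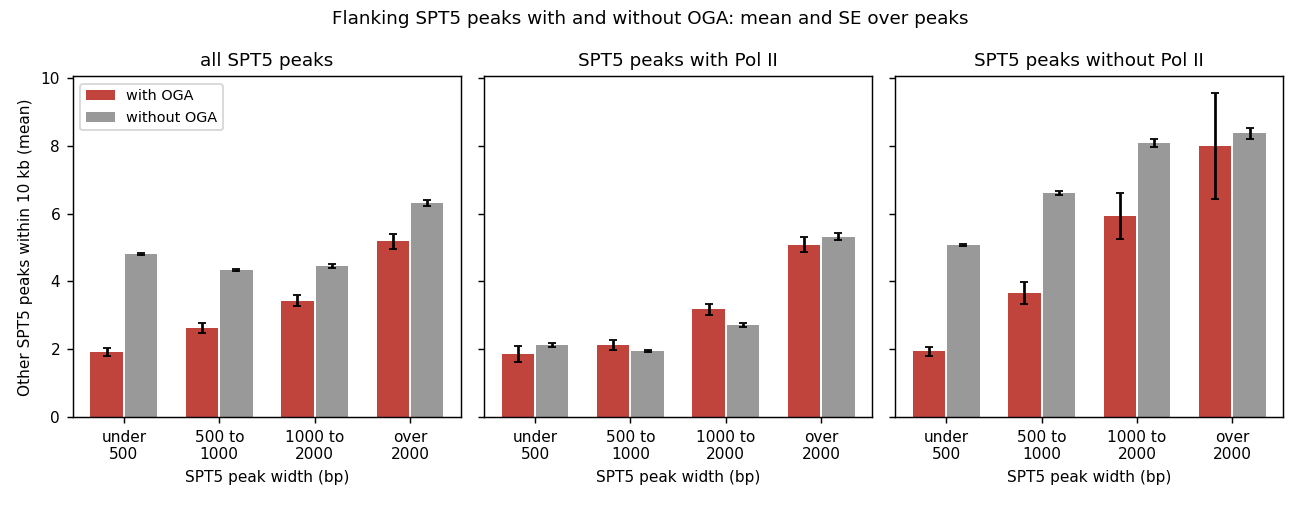
Mean number of other SPT5 peaks within 10 kb (y axis; error bars are the SE over peaks, which share flanks with their neighbours) by SPT5 width class (x axis), with OGA (red) and without OGA (grey). Under 500 bp the means were 1.93 with OGA and 4.81 without over all SPT5 peaks, but 1.87 and 2.13 among those with Pol II.

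The flanking SPT5 peaks themselves were alike in height and width. Those around SPT5 peaks with OGA had a median fold enrichment of 3.06 and a median width of 418 bp, and those around SPT5 peaks without OGA had 3.20 and 405 bp. Pol II overlapped 21.9% of the flanking peaks around SPT5 with OGA and 15.9% of those around SPT5 without it, beside 28.9% of all SPT5 peaks. TRIM28 overlapped 31.3% and 18.0%, beside 30.7% of all. A flanking peak carried OGA of its own at 4.91% around SPT5 with OGA (268 of 5459) and at 2.07% around SPT5 without it (5191 of 250505), beside 3.21% of all. Neighbours of which only 1 had OGA enter both counts, so the 2 shares are not independent. A flanking peak is counted once for each neighbour it has, so these counts are not of separate peaks.

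The other targets differed between SPT5 peaks with and without OGA in each width class. TRIM28 was present at 95.1% of SPT5 peaks with OGA (1677 of 1764, 94.0% to 96.0%) and at 28.6% of those without (15193 of 53121), beside 30.7% of all. Under 500 bp the shares were 93.1% and 15.8%, and over 2000 bp 96.9% and 57.8%, so TRIM28 varied little with width where OGA was present. O-GlcNAc was present at 35.3% with OGA and 13.4% without, beside 14.1% of all. It overlapped 5.80% and 2.67% under 500 bp, 34.7% and 25.1% at 500 to 1000 bp, 54.4% and 38.9% at 1000 to 2000 bp, and 49.0% and 29.7% over 2000 bp. Pol II varied most with width where OGA was present, at 17.4% under 500 bp, 67.0% at 500 to 1000 bp and 90.8% at 1000 to 2000 bp.

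Seen from OGA, the height of the OGA peak went down with the width of the SPT5 peak that held it. The median OGA fold enrichment was 3.91 at the 693 OGA peaks without SPT5, 3.50 in SPT5 peaks under 500 bp, 3.28 at 500 to 1000 bp, 3.03 at 1000 to 2000 bp and 2.96 over 2000 bp. SPT5 overlapped 88.4% of OGA peaks in the lowest of 10 bins of OGA height, 48.4% in the ninth and 62.5% in the highest (56.4% to 68.3%). The interval of the highest bin was apart from that of the ninth (42.3% to 54.6%) and overlapped that of the eighth (48.6% to 60.9%). In SPT5 peaks over 2000 bp lay 26.9% of the contained OGA summits of the lowest bin and 6.03% of those of the ninth.

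OGA peaks without SPT5 were mostly far from any SPT5 peak. Their median distance to the nearest one was 31054 bp (quartiles 8026 and 112376 bp). An SPT5 peak lay within 1 kb of 48 of the 693 (6.93%), within 10 kb of 196 (28.3%, 25.1% to 31.7%) and within 100 kb of 498 (71.9%). No SPT5 peak other than the overlapping one lay within 10 kb of 26.8% of the OGA peaks with SPT5, and none lay within 10 kb of 71.7% of those without it. TRIM28 was present at 93.9% of the OGA peaks with SPT5 and 80.8% of those without it, beside 90.3% of all OGA peaks. Pol II was present at 63.8% of those with SPT5 and 1.59% of those without it (11 of 693), beside 46.5% of all. O-GlcNAc was present at 31.9% and 3.75%, beside 24.1% of all.

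Sites with the highest OGA peak in each width class (hg19, no gene annotation of that build was used) showed the range of positions. Under 500 bp, the SPT5 peak at chromosome 19, 7598969 to 7599267 held an OGA summit (OGA fold enrichment 20.6) 5 bp from its end, and that at chromosome 2, 109392953 to 109393303 held one (13.9) 6 bp from the SPT5 summit. At 500 to 1000 bp, the peak at chromosome 11, 45376718 to 45377303 (SPT5 fold enrichment 3.62) had OGA (19.6) at position 0.410, and that at chromosome 5, 147763016 to 147763824 (14.0) had OGA (19.1) at 0.493; neither had a flanking SPT5 peak. At 1000 to 2000 bp, OGA lay at position 0.786 of chromosome 19, 41869293 to 41870488, 306 bp from the SPT5 summit, and at 0.671 of chromosome 17, 1358706 to 1360058, 138 bp away. Over 2000 bp, OGA lay at 0.174 of chromosome 19, 49954665 to 49957559, which was 1739 bp from the SPT5 summit, and at 0.484 of chromosome 20, 44562262 to 44564329, 391 bp away. All 6 of the sites of at least 500 bp carried Pol II, TRIM28 and O-GlcNAc, and neither of the 2 narrower ones carried TRIM28 or O-GlcNAc.

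The SPT5 domains with the most OGA peaks held 4 each. In the domain at chromosome 7, 1038827 to 1055875 (17049 bp, SPT5 fold enrichment 5.83), OGA summits lay at positions 0.0620, 0.288, 0.516 and 0.528, the third of them 37 bp from the SPT5 summit. At chromosome 17, 79474537 to 79487074 (12538 bp, 12.8) they lay at 0.165, 0.520, 0.581 and 0.813, all over 1 kb from it. At chromosome 19, 2081739 to 2091702 (9964 bp, 10.6) they lay at 0.379, 0.504, 0.539 and 0.894, the first of them 86 bp away. These 12 OGA peaks had fold enrichments of 2.48 to 3.40, and the 3 domains held 5, 6 and 7 Pol II summits. By contrast, no OGA peak lay within 10 kb of the high SPT5 peaks on chromosome 11 from 118963689 to 118966730 (fold enrichment 28.1) and on chromosome 17 from 4242909 to 4246294 (28.0) and from 26903045 to 26905016 (25.2), each with Pol II and 5 flanking SPT5 peaks. The highest OGA peaks with no SPT5 peak within 10 kb were on chromosome 17 from 65422 to 66250 (26.0), on chromosome 16 from 12416527 to 12417405 (20.9) and on chromosome 19 from 15560536 to 15561122 (19.1), at 169492, 66461 and 16288 bp from the nearest one.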

How the data were processed

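Peak lists of the OGA and SPT5 libraries on chromosomes 1 to 22 were compared, with the Pol II, TRIM28 and O-GlcNAc lists as further readouts. Groups came from the sample titles, with 1 library each. Per the submitters' processing notes, reads passed through bcl2fastq 2.17, Trimmomatic 0.30 and Bowtie2 2.1.0, with hg19 as the build. The sources used here do not name the peak caller, control or threshold. The authors deposited 1 line per peak, called per sample, with a fold enrichment (a ratio over a background not given), a −log10 q value and another column, the offset of the summit. Fold enrichment was used only within 1 list. Depth is unknown. Smallest −log10 q values were 1.33 for OGA and 1.30 for SPT5.

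Peaks with at least 1 bp in common overlapped. Width classes were under 500, 500 to under 1000, 1000 to 2000 and over 2000 bp. Shares have 95% Wilson intervals and medians order-statistic intervals; no test was run, since peaks of 1 library are not replicates. Sites were named by rule: the 2 highest OGA peaks in each width class, the 3 SPT5 peaks with most OGA peaks, and the 3 highest SPT5 and OGA peaks with none of the other within 10 kb. The members, width classes and measures were chosen with earlier results of these data known. Alternatives were a −log10 q of at least 5, chromosome X, merging of SPT5 peaks within 500 bp, other overlap rules, SPT5 peaks with 1 OGA summit, and flanks within 5 or 20 kb or between summits. Divisions by Pol II and TRIM28 were added after seeing the data. The functions were checked with summits planted at known positions in SPT5 peaks of these data. Overlaps and flanks were checked against direct counts on 1 chromosome. Computation used scipy 1.17.1, pandas 2.3.3, numpy 2.4.6, matplotlib 3.10.9 and Python 3.11.15.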

Additional observations from a re-analysis of the deposited data

Results flagged for a closer look

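Peaks on chromosome X stood out because the comparisons were limited to chromosomes 1 to 22. SPT5 overlapped 55.2% of the 58 OGA peaks on X (32 peaks, 95% Wilson interval 42.5% to 67.3%), against 72.3% of those on chromosomes 1 to 22. Among these the share ran from 53.8% on chromosome 21 to 82.2% on chromosome 19, so that the value on X lay within their range. On X, OGA overlapped 2.77% of the 1155 SPT5 peaks (1.97% to 3.88%).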

How the results depend on the processing

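Libraries could not be paired because each antibody had 1. The OGA and SPT5 summits of an SPT5 peak are paired, but their central shares were compared as separate groups. Under other thresholds, overlap rules and windows, 96 values stayed within the interval of the main value, 39 moved beyond it and 0 changed sign; chromosome X, an overlap of 50% of the shorter peak, SPT5 peaks with 1 OGA summit and distance between summits moved none. Classes are given from narrow to broad, and differences are with OGA minus without.

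At a −log10 q of at least 5 in both lists, 63.0% of OGA summits lay in SPT5 and 2.79% of SPT5 peaks had OGA (2.59%, 4.71% and 7.17% from 500 bp up). The fold enrichment differed by -0.432 under 500 bp, 0.272 at 500 to 1000 bp and 0.789 at 1000 to 2000 bp, flanks by -1.57, -1.06, -0.569 and -0.652 (weighted, -0.818), the median summit distance was 115 bp, and Pol II, TRIM28 and O-GlcNAc were at 68.7%, 93.9% and 40.4% of SPT5 peaks with OGA. With SPT5 peaks within 500 bp merged, the central stretch held 31.3% (29.9% at 1000 to 2000 bp, 20.1% over 2000 bp) and the outer stretches 7.42%, the distance was 126 bp, OGA was at 4.51% of SPT5 peaks (1.95%, 4.40% and 6.95% up to 2000 bp), fold enrichment differed by 0.312 at 500 to 1000 bp and 2.37 over 2000 bp, flanks by -1.06, -0.619, -0.421 and -0.246 (weighted, -0.394), and Pol II was at 68.6%. Counting only OGA summits inside, 1.22% of SPT5 peaks under 500 bp had OGA. Flanks within 5 kb differed by -1.77 and -1.15 below 1000 bp (weighted, -0.869), and within 20 kb by -4.28 and -2.33 (weighted, -1.77).

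Divisions by Pol II and TRIM28 were chosen after seeing the data, and 13 of their 26 values changed sign. With Pol II, fold enrichment differed by -0.107, -0.444, -0.0537 and -0.0518, and flanks by -0.258, 0.171, 0.456 and -0.231. Without Pol II, from 500 bp up, fold enrichment differed by -0.220, -0.385 and -0.958, and flanks by -2.94, -2.14 and -0.358. With TRIM28, fold enrichment from 500 bp up differed by -1.20, -0.422 and -0.138 (without TRIM28, undivided by Pol II, by 1.39, 4.48 and 4.84). Flanks with TRIM28 differed over the 4 classes by -0.577, 0.274, 0.566 and -0.0933. Weighted by width and Pol II, flanks differed by -0.900, and by -0.0597 with TRIM28 added. The cause was not tested. The unknown depth of each library limits how many weak OGA peaks could be called.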
